A study of Mus musculus with 30 samples.

Results

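Chemically induced pluripotent stem cell (CiPSC) lines were compared with the embryonic stem cell (ESC) line R1 in the 3 sets of samples that held both. These sets gave 10 of the 30 samples of the study, 7 of CiPSC and 3 of R1, and each CiPSC line was set against the R1 sample of its own set. The study measured messenger RNA with a 1-colour array of long oligonucleotides in somatic mouse cells, in lines reprogrammed from them and in ESC. The samples were normalized by the authors in 5 separate sets, numbered 1 to 5.

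Set 1 held 4 CiPSC lines and the R1 sample ESC1. CiPS34, CiPS50 and CiPS21 came from mouse embryonic fibroblasts (MEF) and MNF CiPS7 came from neonatal fibroblasts. Their chemical codes were VC6TFMP+Z for CiPS34, VC6F+Z for CiPS50, VC6TFDBS+Z for CiPS21 and VC6TFS+Z for MNF CiPS7. Set 3 held CiPS WT1 and CiPS WT2, both from wild-type MEF and both made with VC6TFMPS+Z, and the R1 sample ESC3. Set 5 held 1 sample called CiPSCs, a control line from MEF made with VC6TF+Z, and the R1 sample ESC5. In these codes V is valproic acid, an inhibitor of histone deacetylases, C an inhibitor of the kinase GSK3, 6 an inhibitor of the TGF-beta receptor, T tranylcypromine, F forskolin, which raises cyclic AMP, and Z DZNep, an inhibitor of S-adenosylhomocysteine hydrolase. The other letters are not spelled out here. R1 had no chemical treatment. All 10 samples were grown on feeder layers of MEF whose division had been blocked, so RNA of feeder cells is open to all of them. Each column of values stands for 3 replicates in set 1 and 2 in sets 3 and 5, and whether these were separate cultures is not stated. A p-value here therefore measures the spread of lines within sets and of the CiPSC minus ESC difference between sets. Lines of a set share 1 ESC sample, so the spread of ESC samples enters only through the differences between sets. The ESC side is 1 line, so what separates CiPSC from ESC and what is particular to R1 cannot be told apart within these sets.

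Pluripotent mouse cells are held in that state by a network of transcription factors around Oct4 (the gene Pou5f1), Sox2 and Nanog, with Esrrb, Klf4 and Nr5a2 among the factors of the naive state. Reprogrammed lines are usually judged by whether they switch this network on and the genes of the starting cell off. Lines of the same state can still differ in single genes through their genetic background, their history in culture or chromosome changes, and ESC lines such as R1 and TT2 differ among themselves too.

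Sets 1, 3 and 5 reported 13989, 16339 and 26397 of the 26423 probes. Median intensity per sample lay near 326 in set 1, 225 in set 3 and 110 in set 5, where 18.6% of the values were under 16, the floor used on the log2 scale. The sum of pluripotency markers was far above that of MEF in every CiPSC line. Summed over the 5 markers measured in all 3 sets (Pou5f1, Sox2, Esrrb, Utf1 and Fgf4), they reached 66375 to 89399 in the CiPSC lines of set 1 against 67723 in ESC1, 36596 and 38385 in CiPS WT1 and CiPS WT2 against 42235 in ESC3, and 61012 in CiPSCs against 76827 in ESC5. The MEF of the same sets summed to 612, 440 and 1183. In set 5 the sum of CiPSCs rests on the other markers, since Pou5f1 was at 24.2 in CiPSCs and 61.0 in MEF, and Sox2 at 41.1 and 28.2. Markers of fibroblasts and feeder cells set the wild-type lines apart. Over 9 markers they summed to 16827 in CiPS WT1 and 19696 in CiPS WT2 against 1431 in ESC3, and to 149482 in the wild-type MEF of that set. In set 5 the sum over 12 markers was 1771 in CiPSCs against 5079 in ESC5, and in set 1 the 2 markers measured summed to 440 to 853 in CiPSC against 514 in ESC1.

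The comparison covered 15864 genes or unnamed probes with values in at least 2 of the 3 sets, of which 12154 were measured in all 3. limma fitted the difference of CiPSC minus ESC with the set as a term. A gene was called at a Benjamini-Hochberg adjusted p under 0.05 and a difference of at least 1 on the log2 scale. By this rule 138 genes were higher in CiPSC (0.87% of those tested) and 132 were lower (0.832%), and 2667 had an unadjusted p under 0.05. Of the 270 called genes, 58 differed at least 4-fold and 16 at least 8-fold. In 269 of them every measured line lay on the side of the fit. In 93 every measured line was at least 2-fold away from its ESC, although lines of 1 set share that ESC. The calls were made from these same values, so these counts follow in part from the rule and are no separate check. Genes with a symbol, measured in all 3 sets and with at least 1 value above the floor in each set, were also counted whether called or not. All 7 lines lay above their ESC in 1022 of these and below it in 900. With or without a symbol, 12154 were measured in all 3 sets. The number to be met by chance was not worked out, and lines of a set share their ESC, so these counts stand as description only. The counts of called genes depend on which samples enter. They were 153 higher and 171 lower without CiPS34, 102 and 90 without CiPS21 and 79 and 75 without CiPS50. Without MNF CiPS7 they were 60 and 60, without CiPS WT1 20 and 26, and without CiPS WT2 25 and 28. Leaving out an ESC sample or CiPSCs takes a whole set out of the contrast, and fewer genes were then tested. Counts were 14 and 8 without ESC1 (14951 tested), 76 and 66 without ESC3 (13067), and 65 and 37 without CiPSCs (12154). Without ESC5, also with 12154 tested, they were 66 and 37.

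The gene furthest above R1 was Ubd, which encodes the ubiquitin-like modifier FAT10 and is induced by interferon-gamma and tumour necrosis factor. The gene furthest below was Xaf1, which encodes a partner of the apoptosis inhibitor XIAP and is also induced by interferon. Tekt1, which encodes a tektin of cilia and sperm tails, is the next tested gene after Xaf1 on its chromosome and was lower too. The start regions of these genes are shown because they carry the largest difference in each direction and a pair adjacent among tested genes. Each runs 5′ to 3′ along the gene's strand, from 250 bases before to 50 bases after the start given by RefSeq (GRCm38.p6), with every CpG in capitals. Ubd is at chr17:37193642-37193941 on the plus strand, Xaf1 at chr11:72301379-72301678 on the plus strand and Tekt1, at the first of its 2 listed starts, at chr11:72361833-72362132 on the minus strand.
Ubd: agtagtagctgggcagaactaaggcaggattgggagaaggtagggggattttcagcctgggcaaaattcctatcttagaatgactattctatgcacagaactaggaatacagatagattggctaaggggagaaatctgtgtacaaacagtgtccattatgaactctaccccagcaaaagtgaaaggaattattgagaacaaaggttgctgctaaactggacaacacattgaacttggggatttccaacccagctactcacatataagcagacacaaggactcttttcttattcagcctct
Xaf1: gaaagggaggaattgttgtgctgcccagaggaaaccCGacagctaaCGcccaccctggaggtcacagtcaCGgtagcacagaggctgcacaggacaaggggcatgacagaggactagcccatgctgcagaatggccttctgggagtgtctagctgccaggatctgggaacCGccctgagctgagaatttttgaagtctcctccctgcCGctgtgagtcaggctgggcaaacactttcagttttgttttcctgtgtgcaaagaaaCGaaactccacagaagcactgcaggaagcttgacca
Tekt1: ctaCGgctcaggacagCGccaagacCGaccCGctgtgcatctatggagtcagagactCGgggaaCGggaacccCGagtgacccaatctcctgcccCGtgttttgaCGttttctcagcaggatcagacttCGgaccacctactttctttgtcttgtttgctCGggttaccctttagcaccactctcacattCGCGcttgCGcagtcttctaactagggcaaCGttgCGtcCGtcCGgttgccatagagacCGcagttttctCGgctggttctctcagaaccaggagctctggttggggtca
The Ubd window held 0 CpG, as did 5.43% of the 32851 promoter windows of the table. Xaf1 held 6 and Tekt1 20 at its first start, and the median window held 7. The window at the second Tekt1 start, which is not shown, held 5. The motif GAAANNGAAA, the core of the interferon-stimulated response element, was searched on both strands. It was in none of the 3 windows shown and in 3.44% of all windows, which says only that these letters are not there.

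Ubd was at 1363 in CiPS34, 1705 in MNF CiPS7, 2582 in CiPS50 and 2018 in CiPS21, against 33.9 in ESC1. It was at 378 in CiPS WT1 and 771 in CiPS WT2, against 32.1 in ESC3, and at 1953 in CiPSCs, against 43.2 in ESC5. The groups did not overlap, and all 3 R1 samples were low. Ubd was higher in CiPSC with a fitted log2 difference of 5.13 ± 0.37 (SE, from 7 CiPSC and 3 ESC samples; adjusted p = 0.000307 by limma), which is 35.0-fold. MEF of sets 1 and 5 were at 56.2 and 372.

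Most other genes of interferon responses were not called. Of all 15864 features, 1.7% were called in either direction and 16.8% had an unadjusted p under 0.05, and the counts of lists here and further on stand against these shares. Of 20 interferon-stimulated genes tested, 2 rose and none fell, 6 had an unadjusted p under 0.05, and the median difference was -0.09, against 0.017 over all genes. The other riser was Ifitm3, which encodes a membrane protein that blocks virus entry and is also an early germ cell gene. Ifitm3 was at 20735, 22924, 22335 and 21912 in CiPS34, MNF CiPS7, CiPS50 and CiPS21, against 7860 in ESC1, and at 10919 and 20591 in CiPS WT1 and CiPS WT2, against 3317 in ESC3. CiPSCs read 19682, against 5534 in ESC5. Every line was above its ESC, by 1.81 ± 0.21 in the fit (limma adjusted p = 0.00372). Xaf1 is not a member of that list.

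Xaf1 was at 224, 134, 233 and 170.1 in CiPS34, MNF CiPS7, CiPS50 and CiPS21, against 2587 in ESC1. It was at 45.8 and 127 in CiPS WT1 and CiPS WT2, against 1301 in ESC3, and at 91.8 in CiPSCs, against 3636 in ESC5. The groups did not overlap, and the fitted difference was -4.28 ± 0.37 (SE; limma adjusted p = 0.000677), or 19.5-fold lower in CiPSC. The 2 genes moved in opposite directions, with no overlap in either.

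**Figure D1:**
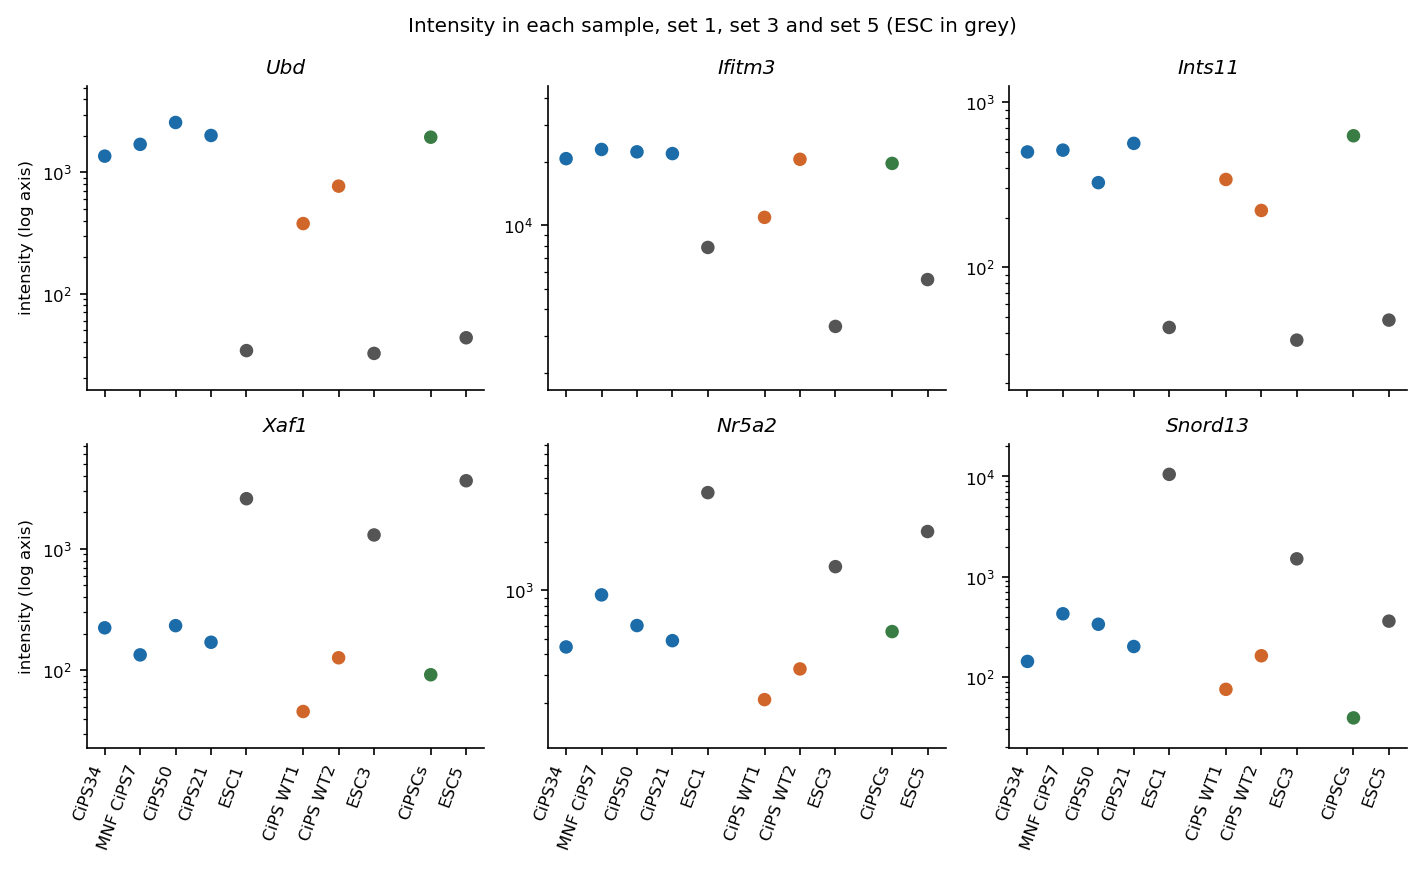
Intensity (log axis) of 6 genes in each of the 10 samples, with the CiPSC lines of a set left of their ESC, which is in grey. Ubd, Ifitm3 and Ints11 are higher in every CiPSC line than in its ESC, and Xaf1, Nr5a2 and Snord13 are lower in every line.

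Ints11 and Gemin7, whose products act on small nuclear RNAs, were higher in every line. Ints11, the endonuclease of the Integrator complex, which cuts the ends of small nuclear RNAs, was at 325 to 562 in the 4 CiPSC lines of set 1, against 43.2 in ESC1. It was at 340 and 221 in CiPS WT1 and CiPS WT2, against 36.2 in ESC3, and at 624.6 in CiPSCs, against 47.9 in ESC5. This was 3.32 ± 0.27 higher in the fit (limma adjusted p = 0.000547). Gemin7, a subunit of the SMN complex that assembles small nuclear ribonucleoproteins, was at 1060 in CiPS34 and at 1858 to 2343 in the other lines of set 1, against 495 in ESC1. The wild-type lines were at 1100.1 and 1204, against 271 in ESC3, and CiPSCs at 1568, against 364 in ESC5, a fitted difference of 1.98 ± 0.26 (limma adjusted p = 0.00878). MEF1 stood above all of them at 4453. Of the 14 genes of the SMN complex and its partners that were tested, Gemin7 was the 1 that rose and none fell, 4 had an unadjusted p under 0.05, and the median was 0.12. Lars2, the mitochondrial leucyl-tRNA synthetase, was 2.08 ± 0.22 higher.

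The small nucleolar RNAs Snord13 and Snord118 were lower in every line. Snord13, the U13 RNA of ribosomal RNA processing, was at 143, 427, 336 and 201 in CiPS34, MNF CiPS7, CiPS50 and CiPS21, against 10501 in ESC1. It was at 75.2 and 163 in CiPS WT1 and CiPS WT2, against 1508 in ESC3, and at 39.0 in CiPSCs, against 361 in ESC5. The groups overlap across sets but not within a set, since ESC5 was lower than MNF CiPS7. The fitted difference was -4.28 ± 0.46 (limma adjusted p = 0.00245). Snord118, the U8 RNA, was at 46.8 to 84.9 in the CiPSC lines of set 1 against 907 in ESC1, at 17.4 and 22.9 in the wild-type lines against 168 in ESC3, and at 26.5 in CiPSCs against 90.4 in ESC5, which was -3.03 ± 0.34 in the fit (limma adjusted p = 0.00294). How this array's labelling captures such short RNAs is not known here.

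Sik1, Rgcc, Porcn, Grb14, Inhbb and Ptgs2 were among the 15 genes with a symbol that had the largest higher differences. Sik1, a kinase that cyclic AMP and CREB induce, was at 384 to 566 in the CiPSC lines of set 1 against 32.2 in ESC1, at 302 and 231 in the wild-type lines against 56.6 in ESC3, and at 464 in CiPSCs against 68.4 in ESC5. It was 3.02 ± 0.31 higher (limma adjusted p = 0.00193). Of 13 tested targets of cyclic AMP and CREB, Sik1 was the 1 that rose, none fell and 2 had an unadjusted p under 0.05. The median of that list was 0.03. Rgcc, a regulator of the cell cycle, was 2.75 ± 0.57 higher, from 328 in CiPS WT2 up to 4751 in CiPS34, against 131 to 812 in the R1 samples, so its groups overlap across sets. Porcn, the enzyme that acylates Wnt proteins, was 2.65 ± 0.55 higher, with line differences from 1.10 to 4.69. Grb14, an adaptor that restrains the insulin receptor, was measured in sets 3 and 5 only and was 3.08 ± 0.35 higher, and so was Inhbb, the beta B subunit of activin and inhibin, which was 2.26 ± 0.32 higher. Ptgs2, cyclooxygenase 2, was 3.19 ± 0.50 higher on the same 3 lines, at 1283 and 1426 in the wild-type lines against 79.8 in ESC3 and at 201 in CiPSCs against 50.6 in ESC5. The wild-type lines also carried the fibroblast markers given above, whose part in the result for Ptgs2 was not tested.

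Of the remaining higher genes, Tmem245 encodes a membrane protein, Manba the lysosomal beta-mannosidase and Serinc3 a membrane protein. Tmem245 was at 511 to 880.1 in set 1 CiPSC against 89.2 in ESC1, at 683 and 789 in the wild-type lines against 27.5 in ESC3, and at 1500 in CiPSCs against 144 in ESC5. Its difference was 3.69 ± 0.33 (limma adjusted p = 0.000677). Manba ranged more, from 816 in CiPS34 to 3172 in CiPS21 against 100.1 in ESC1 and from 2356 in CiPS WT1 to 4787 in CiPS WT2 against 770 in ESC3, with 7979 in CiPSCs against 363 in ESC5. It was 3.48 ± 0.52 higher, with line differences from 1.61 to 4.99. Serinc3 was 2.47 ± 0.28 higher and Tdrd3, a reader of methylated arginine, 2.45 ± 0.32, both in sets 3 and 5. Clmp, an adhesion molecule, was 2.30 ± 0.44 higher, 1700030C10Rik 2.31 ± 0.46 and the kinase gene Stk33 2.28 ± 0.35. Even differences between lines marked Zfp759, a zinc finger gene, which lay 1.45 to 1.81 above the ESC in all 7 lines. Gipc2, a PDZ protein, was 2.24 ± 0.34 higher and Fnip2, a partner of folliculin, 1.80 ± 0.31.

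Genes of transport and membranes among the lower ones varied in how alike the lines were. Slc13a5, a citrate carrier, was -3.23 ± 0.72 on the log2 scale, and its lines spread from -4.84 in CiPS21 to -0.75 in MNF CiPS7. Fxyd6, a modulator of the sodium pump, was -3.22 ± 0.44, at 861 to 4573 in set 1 CiPSC against 12521 in ESC1, 744 and 606 in the wild-type lines against 5598 in ESC3, and 1219 in CiPSCs against 20589 in ESC5. Slc1a1, a glutamate carrier, was -3.02 ± 0.55 and Snap91, which assembles clathrin coats, -2.72 ± 0.28, and down to -3.42 in CiPS34. Mpp5, a scaffold of cell polarity, was -2.67 ± 0.49, from -3.40 to -0.48 between lines. Tekt1 was measured in sets 1 and 5. It was at 75.2 to 96.4 in the CiPSC lines of set 1 against 1189 in ESC1, and at 88.4 in CiPSCs against 1066 in ESC5, which gave -3.71 ± 0.27 (limma adjusted p = 0.000677).

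Hspb2, Myom2, Mmp3 and Defb42 were also lower. Hspb2, a small heat shock protein of muscle, was -3.13 ± 0.28, at 19.9 and 24.9 in CiPS WT1 and CiPS WT2 against 210 in ESC3 and at 33.2 in CiPSCs against 262 in ESC5. Myom2, a protein of the sarcomere's M-band, was -2.64 ± 0.41 and Parm1 -2.75 ± 0.43. Mmp3, a matrix metalloproteinase, was -2.83 ± 0.62, close to R1 in the wild-type lines (-0.32 and -0.88) and furthest below in MNF CiPS7 (-4.78). Defb42, a beta-defensin, was -2.80 ± 0.46. Scml2, a polycomb protein of the germ line, was -2.87 ± 0.61, with lines from -4.05 to -0.58. Smc1b, the cohesin subunit of meiosis, was -2.33 ± 0.50 and Brdt, a bromodomain protein of spermatocytes, -1.62 ± 0.36 (limma adjusted p = 0.0483). Of 14 germline genes tested, Brdt was the 1 that fell and none rose, 5 had an unadjusted p under 0.05, and the median was -0.48. Smc1b and Scml2 are not in that list.

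**Figure D2:**
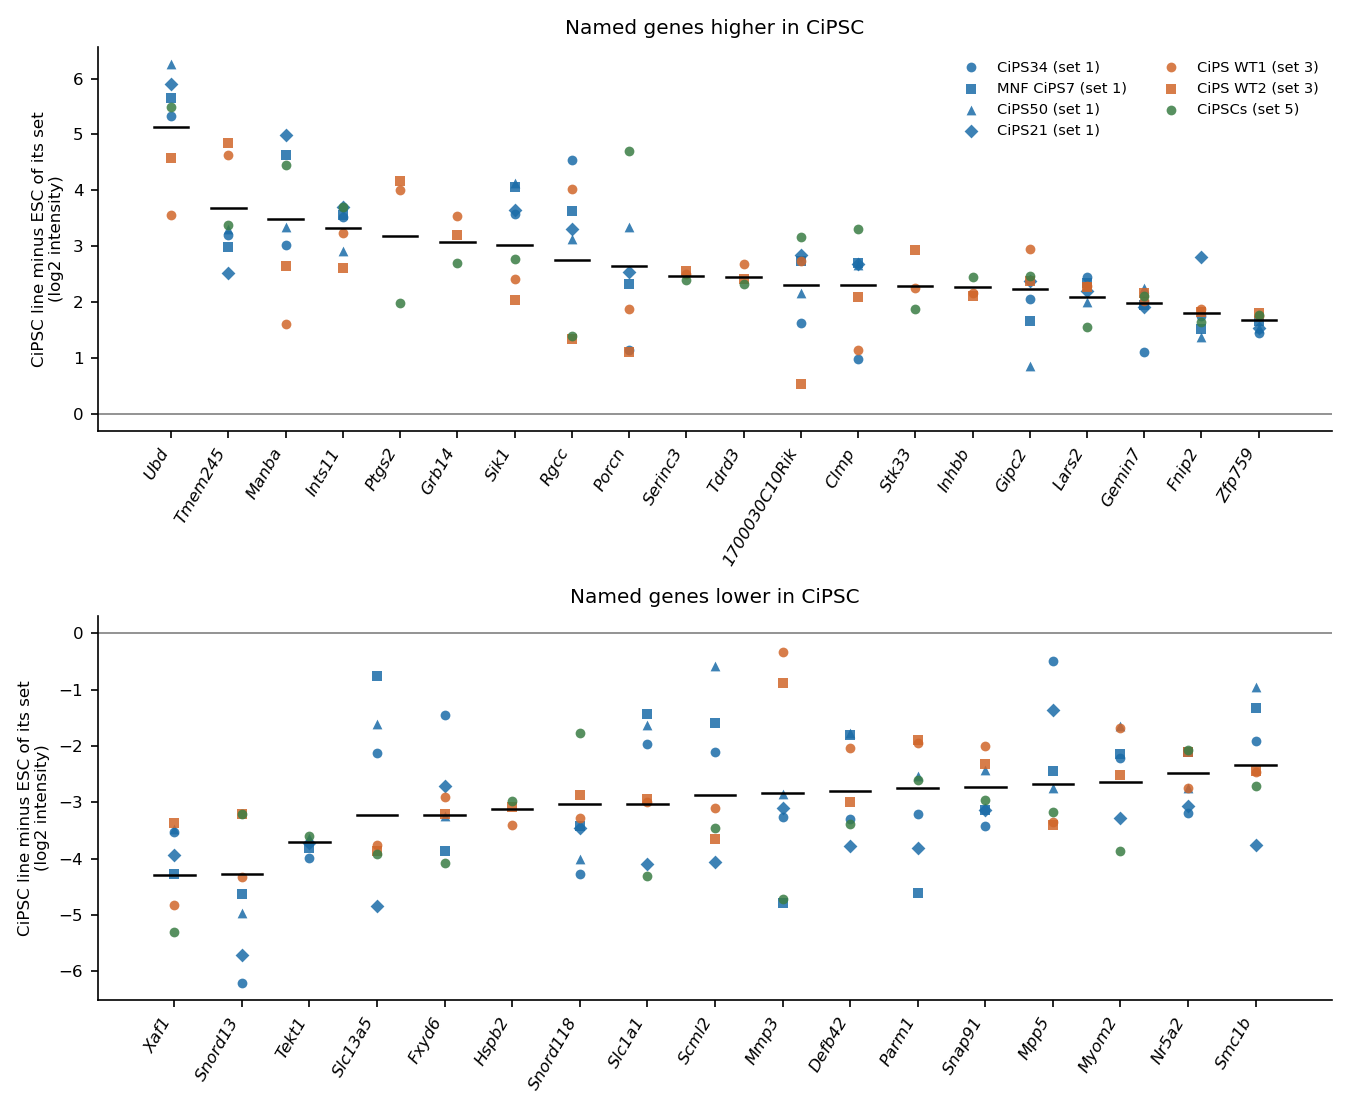
Difference of each CiPSC line from the ESC of its set (log2 intensity), for the named genes higher and lower in CiPSC. Points are lines, coloured by set, and the black bar is limma's fitted difference. Every point of the genes called higher is above 0 and every point of the genes called lower is under 0.

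Calls of 13 of these genes held in every fit with a sample left out that could be run. In all 10 such fits adjusted p stayed under 0.05 for Ubd, Tmem245, Ints11, Ifitm3, Sik1, Lars2, Zfp759, Xaf1, Snord13, Snord118 and Snap91. For Tekt1 and Hspb2 it did so in the 7 fits that were possible. Tekt1 had no values in set 3 and Hspb2 none in set 1, so some of these fits left out a sample without a value for the gene. Neither gene could be tested without CiPSCs or ESC5, nor Tekt1 without ESC1 or Hspb2 without ESC3. With 1 averaged value per group and set, a fit that treats the lines of a set as 1 sample, the limma adjusted p was 0.020 for Ubd and Xaf1, 0.0309 for Ints11, 0.0408 for Tmem245, Snord13 and Snap91, and 0.0456 for Ifitm3, Tekt1 and Nr5a2. It was 0.0619 for Sik1 and Hspb2, 0.0851 for Snord118, 0.0877 for Lars2 and 0.148 for Zfp759. Each of the other higher and lower genes described above lost its call in at least 1 fit with a sample left out, and Mmp3 and Apoe passed in 1 of 10.

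Core pluripotency genes were not called, apart from Nr5a2. This nuclear receptor, which activates Pou5f1 in mouse ESC, was at 445, 937.5, 604.5 and 487 in CiPS34, MNF CiPS7, CiPS50 and CiPS21, against 4049 in ESC1. It was at 209.5 and 325 in CiPS WT1 and CiPS WT2, against 1404 in ESC3, and at 555 in CiPSCs, against 2321 in ESC5. Every line was lower, and the fitted difference was -2.48 ± 0.29 (limma adjusted p = 0.00372), which fell short of the threshold in 1 of the 10 fits with a sample left out. Among 23 tested genes of the naive list, Manba rose, Nr5a2 fell, 6 had an unadjusted p under 0.05 and the median was 0.19. Manba is a lysosomal enzyme and not a regulator of that state. For the other factors the differences were -0.72 ± 0.43 for Pou5f1 (limma adjusted p = 0.431), 0.34 ± 0.19 for Sox2 (0.386), 0.13 ± 0.20 for Esrrb (0.795), 0.46 ± 0.24 for Zfp42 (0.376), -0.66 ± 0.34 for Klf4 (0.382), 0.42 ± 0.49 for Myc (0.717) and 1.92 ± 0.75 for Nanog (0.244). Misses of the threshold do not show equal levels.

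Nanog was at 3507, 776, 892 and 445 in the set 1 lines against 158 in ESC1, and at 2373 in CiPSCs against 1468 in ESC5, so its 5 measured lines were above R1 by 0.69 to 4.47. The probes of Pou5f1 and Sox2 read low throughout set 5. Pou5f1 was at 24.2 in CiPSCs, 140.5 in ESC5 and 61.0 in the MEF of that set, and Sox2 at 41.1, 34.2 and 28.2, so set 5 gives no separation of stem cells from fibroblasts for either. Esrrb was at 25958 in CiPSCs and 27782 in ESC5, against 91.0 in MEF. Of the primed state, Zic2 rose by 1.28 ± 0.26 (limma adjusted p = 0.0378), above R1 in all 7 lines. The call held in 2 of 10 fits with a sample left out. It was the 1 of 9 tested primed genes that rose and none fell, with 2 at an unadjusted p under 0.05, and the list's median was 0.59. Tdgf1, Dppa3 and, of fibroblasts, Col1a1 were measured in too few of these sets to be tested. In set 5 Tdgf1 was at 42519 in CiPSCs and 30048 in ESC5, Dppa3 at 212 in CiPSCs and 1228 in ESC5, and Col1a1 at 51.0 in CiPSCs and 35.3 in ESC5.

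Genes of the starting cells differed by set and were not called. None of the 25 tested genes of fibroblasts and feeders was called by limma (1.7% of all features were) and 13 had an unadjusted p under 0.05 (16.8% of all). Their median difference was 1.02, with 2.40 in set 3, -0.02 in set 1 and 0.04 in set 5. In set 3 all 25 were above ESC3 and 19 were at least 2-fold above it. In set 5, 2 of 25 were at least 2-fold higher and 6 at least 2-fold lower, and in set 1, 0 of 10 were higher and 2 lower by that measure. Thy1, a surface antigen of fibroblasts, was at 4984 in CiPS WT1 and 7189 in CiPS WT2, against 453 in ESC3. In the other lines it was at 182 to 509 against 266 in ESC1, and at 478 in CiPSCs against 1056 in ESC5. Its fitted difference, 1.02 ± 0.67, turned to -0.37 without set 3. Whether fewer or more cells of a type or other levels per cell are behind such values cannot be told apart in bulk RNA.

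S100a11, Acta1 and Apoe rose. S100a11, a calcium-binding protein, was 1.94 ± 0.26 higher (limma adjusted p = 0.00878), at 3132 to 6096 in set 1 CiPSC against 751 in ESC1, 4055 and 4116 in the wild-type lines against 1443 in ESC3, and 3921 in CiPSCs against 1118 in ESC5. Fibroblasts of sets 1 and 5 read 17613 and 16627. The difference was 2.38 in set 1, 1.81 in set 5, and 1.49 and 1.51 in the wild-type lines of set 3, and the part of fibroblast RNA in it was not tested. Of 17 tested S100 and annexin genes, S100a11 was the 1 that rose, none fell, 4 had an unadjusted p under 0.05, and the median was 0.29. Acta1, skeletal muscle actin, was 1.98 ± 0.30 higher (limma adjusted p = 0.0333) at 3436 and 3676 in the wild-type lines against 871 in ESC3 and 219 in CiPSCs against 58.2 in ESC5. This passed in 4 of the 7 possible fits with a sample left out, and S100a11 passed in 9 of 10. Acta1 was the 1 of 10 mesoderm and muscle genes called, 2 had an unadjusted p under 0.05 and the list's median was -0.10. Apoe, the lipid carrier listed under extraembryonic endoderm, rose by 1.19 ± 0.25 (limma adjusted p = 0.0439). It was the 1 of 15 called there, with 4 at an unadjusted p under 0.05 and a median of -0.17.

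Imprinted genes gave 1 call of 28 tested, Dlk1, the paternally expressed ligand of the Dlk1-Meg3 domain. Dlk1 was at 125 and 96.8 in CiPS WT1 and CiPS WT2 against 35.8 in ESC3, and at 231 in CiPSCs against 35.3 in ESC5, which was 2.09 ± 0.36 higher (limma adjusted p = 0.0415). It passed in 2 of the 7 possible fits with a sample left out. MEF held far more Dlk1, with 5197 in the wild-type MEF of set 3 and 6776 in the MEF of set 5. The wild-type lines also had fibroblast marker sums of 16827 and 19696 against 1431 in ESC3, and CiPSCs 1771 against 5079 in ESC5, and the part of fibroblast RNA in the Dlk1 difference was not tested. Meg3, the maternally expressed RNA of that domain, whose silencing marks some induced lines, was at 51.9 to 109 in set 1 CiPSC against 61.6 in ESC1, 86.0 and 118.5 in the wild-type lines against 101 in ESC3, and 225 in CiPSCs against 149.9 in ESC5. Its difference was 0.34 ± 0.28 (limma adjusted p = 0.574). The imprinted list had 5 genes at an unadjusted p under 0.05 and a median of 0.03. Xist, the RNA that coats the inactive X, was -0.33 ± 0.24 (adjusted p = 0.524), and Eif2s3y, on the Y, 0.59 ± 0.40 (0.505).

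Across all 30 lists, 398 genes were tested, 10 rose and 2 fell (3.02%, against 1.7% of all features), and 87 had an unadjusted p under 0.05, where 16.8% of all features did. The lists were drawn up with earlier results of these samples known and some hold genes picked for them, so this share is not independent of the calls. Ubd was also the 1 of 11 ubiquitin-like modifiers that rose, in a list with a median of 0.13. In 19 lists limma called nothing, among them Nodal (7 tested), trophoblast (8), two-cell stage (4), DNA methylation (10), polycomb and H3K9 (18), antigen presentation (11), Hox (19), cell cycle (23), p53 (13), glycolysis (17), respiratory chain (20) and Wnt targets (11). These 12 lists had 0, 1, 0, 1, 4, 0, 3, 4, 2, 3, 1 and 2 genes at an unadjusted p under 0.05. List medians other than that of fibroblasts ran from -0.48 to 0.59.

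**Figure D3:**
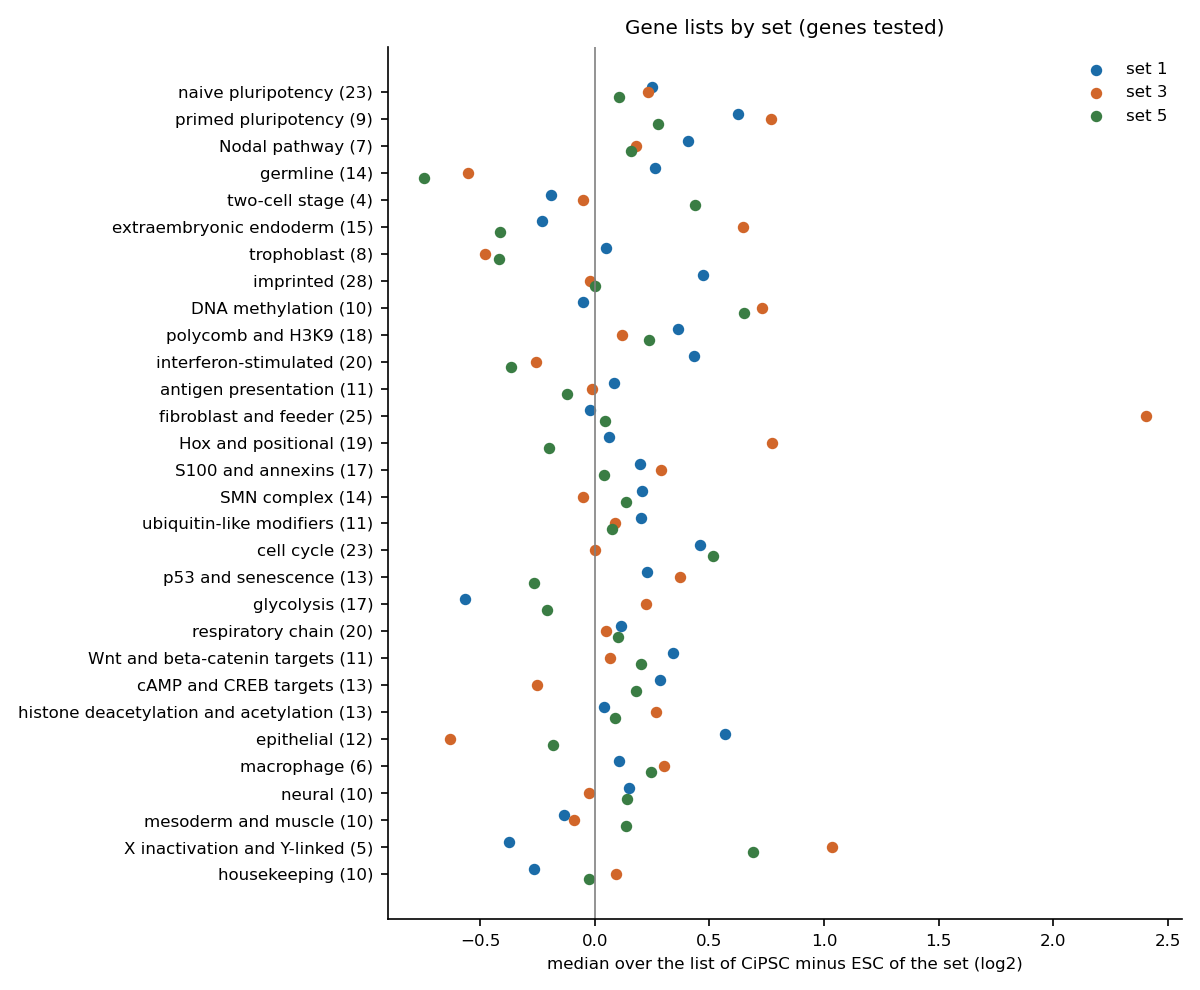
Median over each gene list of the difference of CiPSC from the ESC of the set (log2), by set, with the number of genes tested in brackets. The fibroblast and feeder list in set 3, at 2.40, is the point furthest from 0.

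Differences in 1 set carried over to the others only in part. Across the 12154 genes measured in all 3 sets, 68 were at least 2-fold higher in CiPSC in every set and 84 at least 2-fold lower. Across genes, which are not independent replicates, Pearson's r between the sets' differences was 0.26 for sets 1 and 3, 0.27 for sets 1 and 5 and 0.23 for sets 3 and 5. The sign was the same in 57.4, 55.0 and 55.5% of genes, but in 82.3, 88.1 and 79.2% of the genes that differed at least 2-fold in both sets. Each set was then left out of the fit and used as a check. Without set 1, limma called 27 genes, and of the 21 measured in it 17 had the same direction there (81.0%, against 57.2% of all genes). Without set 3 this was 36 of 42 (85.7%, against 57.8%) and without set 5 it was 87 of 101 (86.1%, against 55.4%). Between 75.8% of genes (CiPS34) and 88.6% (CiPS WT1) lay within 2-fold of the ESC in a line, with a mean of 83.9% ± 4.28 (SD, n = 7). Lines of a set share their ESC, so this SD is not that of independent comparisons. The genes counted were 13079 in set 1, 14951 in set 3 and 23609 in set 5. CiPSCs had 84.7% with the floor and 78.8% with no floor beyond the smallest positive value.

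Sets 2 and 4 share no sample with this comparison, though set 4 shares the R1 line. Set 4 held the R1 sample ESC4 and 2 induced lines from MEF named SKM-FSK, with F as their chemical code. In these lines forskolin replaced Oct4 beside the factors Sox2, Klf4 and Myc (SKM), so they were not induced by chemicals alone. Of the genes called higher, 87 of 135 measured there (64.4%) were also higher in SKM-FSK lines than in ESC4, against 49.3% of all genes with a positive fit. For those called lower it was 99 of 132, against 48.2%. Set 2 held 4 further CiPSC lines and the ESC line TT2. By their names, MNF CiPS1 came from neonatal fibroblasts, MAF CiPS3 from adult lung fibroblasts and ADSC CiPS2 from adipose-derived stem cells, beside CiPS45. In the R1 sets most lines came from MEF, so the ESC line and the starting cells cannot be told apart in this contrast. Of the genes called higher against R1, 46 of 125 (36.8%) were also higher than TT2, against 37.2% of all genes with a positive fit, and of those called lower 32 of 114 (28.1%), against 43.3%.

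Single genes differed in this. Ints11 was at 754 and 570 in the SKM-FSK lines against 62.3 in ESC4, and Tmem245 at 1453 and 1291 against 259. Xaf1 was at 641 and 597 against 1620 in ESC4, while Ubd was at 169 and 101 against 68.6. Against TT2, Ubd was at 508 to 2413 in the CiPSC lines and 598 in TT2, and Xaf1 at 89.2 to 203 and 168. Xaf1 was thus between 1301 and 3636 in the 4 R1 samples and at 168 in TT2, although intensities of different sets were normalized separately. Manba went the other way in both, at 1905 and 2475 against 4575 in ESC4 and at 211 to 4947 against 5595 in TT2. A test of the difference between the R1 sets and the TT2 set, run on 13413 genes, called 2 (0.0149%), and 1247 had an unadjusted p under 0.05. Both were lower against R1 and higher against TT2. TT2 is 1 sample, and each of the 2 genes was measured in 2 R1 samples, so the test assumes that the lone TT2 sample varies as the other samples do. For Hspb2 the difference was -3.13 against R1 and 1.62 against TT2, and for Tekt1 -3.71 against R1 and 1.25 against TT2. Neither was measured in all 4 sets.

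**Figure D4:**
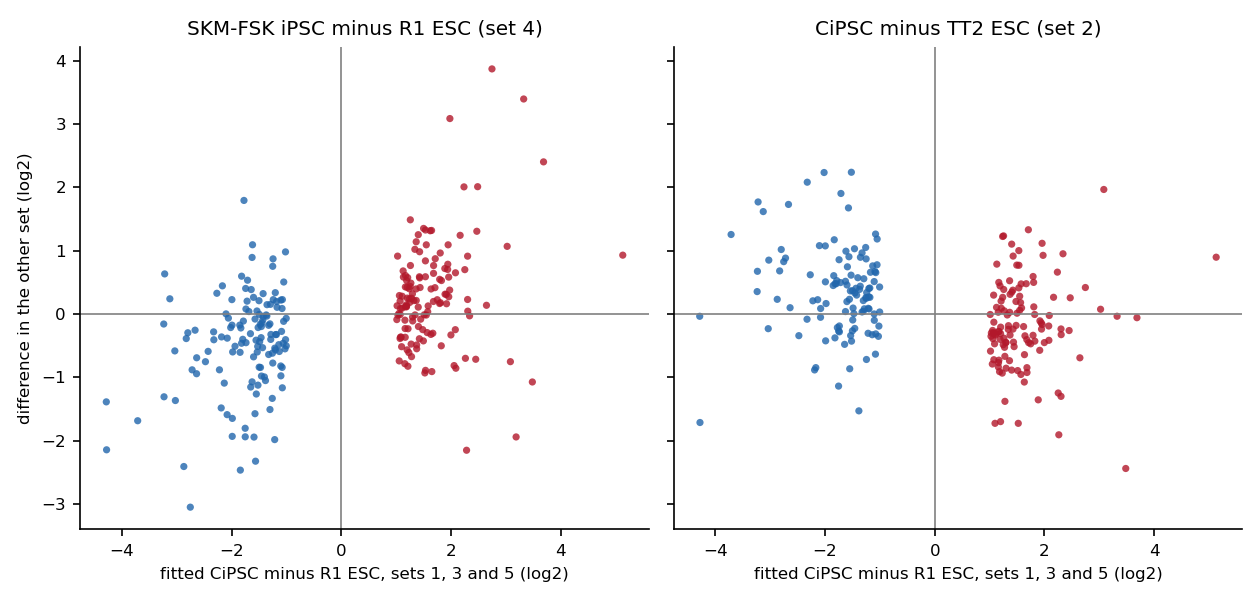
Genes called between CiPSC and R1, by their fitted difference (x axis, log2) and their difference in sets not used for the calls (y axis, log2), for SKM-FSK lines minus R1 in set 4 (left) and CiPSC minus TT2 in set 2 (right). Genes called higher are red and genes called lower blue, and in set 4 87 of 135 red and 99 of 132 blue points keep their side.

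Called genes were counted by chromosome after the calls were seen. Chromosome 11 held 28 of the lower and 3 of the higher genes among 1157 tested (2.42% and 0.259%, against 0.832% and 0.87% over all chromosomes), and chromosome 8 held 10 lower and 4 higher among 736. Medians over both chromosomes were also below those of other chromosomes. Over genes with a mean log2 level of at least 8, the median of line minus ESC on chromosome 11, relative to all genes of that line, was -0.29 in CiPS34, -0.33 in MNF CiPS7, -0.29 in CiPS50, -0.24 in CiPS21, -0.41 in CiPS WT1, -0.40 in CiPS WT2 and -0.17 in CiPSCs. On chromosome 8 it was -0.42, 0.01, -0.36, -0.36, -0.35, 0.05 and -0.29 in the same order. MNF CiPS7 and CiPS WT2 were thus at the level of R1 for chromosome 8 and the other 5 lines below it. In the other 17 autosomes medians ran from -0.12 to 0.27. With no filter on the level, an alternative added after seeing the data, the medians of CiPS34 were -0.26 on chromosome 8 and -0.18 on chromosome 11. In CiPSCs they were then -0.05 and 0.00, but 11.5% of its genes were under the floor in both samples and so tied at 0. Without such genes, CiPSCs had -0.21 on chromosome 8 and -0.13 on chromosome 11, and all 7 lines stayed below 0 on chromosome 11, from -0.30 to -0.13.

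The same medians were taken in other comparisons as well, of which set 4 is the R1 comparison outside these sets. Against ESC4 the SKM-FSK lines had chromosome 11 medians of -0.33 and -0.34 and chromosome 8 medians of -0.36 and -0.38. Against TT2 the 4 CiPSC lines of set 2 had -0.02 to 0.09 on chromosome 11, and -0.17, -0.33, -0.34 and 0.10 on chromosome 8. On chromosome 6 these 4 lines had -0.33 to -0.19 against TT2. Lines induced with transcription factors (OSKM) were measured too. OSKM iPS1 had -0.31 on chromosome 11 and -0.40 on chromosome 8 against ESC1, the sample that the CiPSC lines of set 1 share. OSKM iPS2 had 0.07 and -0.21 on these chromosomes against TT2. The X stood apart in other lines. Its median was 0.84 in CiPS50, 0.57 in MNF CiPS7 and 0.30 in CiPS34, and -0.13 to 0.02 in CiPS21, CiPS WT1, CiPS WT2 and CiPSCs. With no filter on the level it was 0.55 in CiPS50, 0.35 in MNF CiPS7 and 0.19 in CiPS34. With each line's chromosome medians taken off, an alternative added after seeing the data, limma called 229 genes, 214 of them among the 270, with 11 lower and 8 higher on chromosome 11 and 5 lower and 6 higher on chromosome 8. Xaf1, Tekt1 and Snord13 had differences of -3.99, -3.47 and -4.04 there, and Slc13a5, at -2.93, was no longer called.

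**Figure D5:**
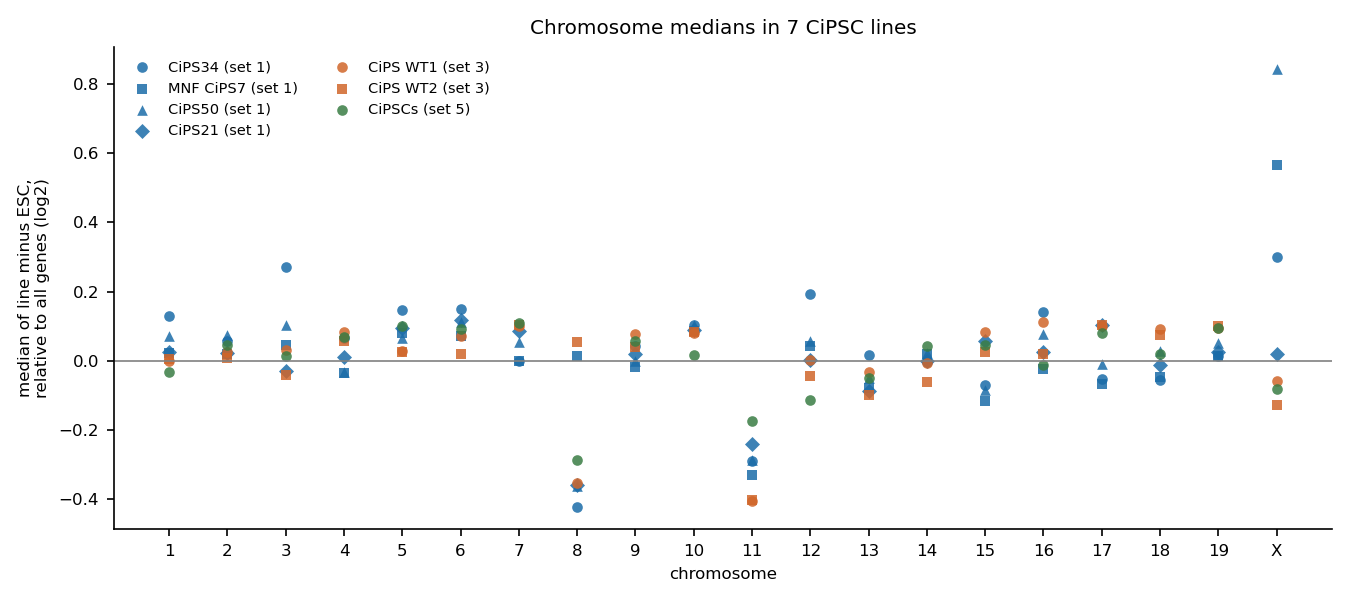
Median difference of each of the 7 CiPSC lines from the ESC of its set, by chromosome, relative to all genes of that line (log2, genes with a mean log2 level of at least 8). With this filter on level, all 7 lines are below 0 on chromosome 11, 5 of 7 on chromosome 8, and 3 lines of set 1 are above 0.2 on the X.

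One interval of chromosome 11 held 5 of its lower genes, where 0.832% of all features tested were called lower. It was picked as the largest of 19 runs of genes called in the same direction with gaps of at most 500000 bases. These runs held 46 of the 243 called genes with a position. The same count was not made for other tested genes, so whether called genes lie closer together than those was not tested. Between positions 72207554 and 72550509 (GRCm38.p6), 9 genes were tested in the order Txndc17, 4930563E22Rik, Slc13a5, Xaf1, Tekt1, Smtnl2, Ggt6, Mybbp1a and Spns3. Txndc17 (-1.13 ± 0.24), Slc13a5, Xaf1, Tekt1 and Spns3 (-1.99 ± 0.31) were called lower. Their neighbours 4930563E22Rik, Smtnl2 and Ggt6 had -0.75, -0.12 and -0.63, Mybbp1a had 0.26, and none of these was called. The interval's median was -1.13. Its ends were set by its first and last called gene, so this median and the count of called genes follow in part from that choice.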

How the data were processed

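RNA of each sample carried the dye Cy5 on a mouse whole-genome array, per the labels. The deposited values are intensity on a linear scale, 1 column per sample, which the authors normalized in 5 separate sets, per the series' design text. How background was handled, and why sets report different probes, is not stated in the sources used here. The comparison used 10 of 30 samples. Probes were named through the platform annotation (21876 of 26423 had a single symbol) and RefSeq (GRCm38.p6, 21825 matched by gene ID).

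Intensities under 16 were set to 16 and log2 was taken. One probe stood for a gene, the one in most of the 3 sets and then the one with the highest mean. limma 3.58.1 (R 4.3.3, with the packages jsonlite 2.0.0 and data.table, version 1.17.8) fitted group and set, with eBayes and trend, over all genes, with Benjamini-Hochberg adjustment. Summaries used Python 3.11.15, pandas 2.3.3 and numpy 2.4.6, and figures matplotlib 3.10.9. Tests of the difference between R1 and TT2 sets added set 2. The number of arrays limits the precision.

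The comparison, the lists and the genes always named were chosen with earlier results of these data known. Named were the 15 largest called differences each way among genes with a symbol, the 12 each way with the largest smallest-set difference among genes with all lines on 1 side, 21 fixed genes and up to 4 members with the largest difference in lists described. On simulated data over the 15864 genes, 80.5% of 200 genes changed by 2 on the log2 scale were recovered with 8 false calls, and none of 200 changed by 1. Noise was drawn separately for each sample, so CiPSC minus ESC differences that vary between sets were not simulated. Recovery and false calls in the real data can differ for this reason.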

Additional observations from a re-analysis of the deposited data

Results flagged for a closer look

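Among 47 sets of CiPSC line values looked at, 3 had a line far from the others, where chance flags about 1 in 20. Fnip2 was 2.81 above the ESC of its set in CiPS21 (log2) and 1.37 to 1.87 above in the other 6 lines. Gemin7 was 1.10 above in CiPS34 and 1.91 to 2.24 in the others. Ifitm3 was 2.63 above in CiPS WT2 and 1.40 to 1.83 in the others.

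The difference of CiPSC from ESC differed between the R1 sets and the TT2 set for 2 genes by limma's interaction test. The value in the R1 sets minus that in the TT2 set was -4.74 ± 0.47 for Hspb2 (log2, SE; limma adjusted p = 0.0232) and -4.96 ± 0.63 for Tekt1 (limma adjusted p = 0.0336). Hspb2 had no values in set 1 and Tekt1 none in set 3. The TT2 side is 1 ESC sample, whose spread is taken from the other samples, and each gene had 2 R1 samples. Every measured CiPSC line of the R1 sets was below its ESC for both. The starting cells of the CiPSC lines also differ between the R1 sets and the TT2 set.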

How the results depend on the processing

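The counts of 138 higher and 132 lower genes stayed within 1.5 times with no floor, an offset, quantile normalization, median centring, the lowest 25% left out, the mean of probes, other eBayes settings, the adjusted p alone, genes of all 3 sets, and both added alternatives. They were 37 and 25 with a floor of 64, 23 and 28 with all 30 samples in the fit, 60 and 60 with MEF-derived lines alone, and 4 and 10 with 1 value per group and set. They were 14 and 13 without set 1, 25 and 18 without set 3, 64 and 37 without set 5, and 4 and 2 with no set term. With the TT2 set added limma called 0 higher and 1 lower, with 655 and 556 at an unadjusted p under 0.05. With 1 sample left out they ranged from 14 to 153 higher and 8 to 171 lower. Of 57 named genes followed, the 44 called kept their direction in each of the 31 alternatives in which they could be tested, and stayed called in 913 of 1299 such cases. Myc and Thy1, neither of them called, changed sign. Myc was -0.14 with no set term, and Thy1 was -0.37 without set 3 and ranged from -0.37 (without ESC3) to 1.76 with 1 sample left out. The test between R1 and TT2 sets called 0 of the genes measured in all 4 sets, with 1109 at an unadjusted p under 0.05. No paired analysis was possible because the replicate numbers only name lines, and the set, which the samples share, is already a term. The causes of these changes were not tested, beyond fewer samples or genes where these were left out. Differences of 1 on the log2 scale were not recovered in simulation, where all genes but the 200 changed had no difference. The real data differ in this, and genes with fitted differences near 1 were called, such as Ddx42 at -1.003 and Akap13 at 1.012. The calls can therefore miss differences of that size, also because the rule drops fitted differences under 1.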
